A study of Homo sapiens with 5 samples.

Results

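The replication-independent histone variants are a set of 9 genes, chosen by symbol: H2AFX, H2AFY, H2AFY2, H2AFZ and H2AFV for H2A, H3F3A and H3F3B for H3, and H1F0 and H1FX for the linker histone. Of these, 7 had a row among the 14084 rows of the count table and 6 passed the low-count filter, as 11335 rows did in all. H3F3A and H3F3B were not analysed here. The samples were ribosome footprint libraries of HAP1, a human leukaemia-derived line with a near-haploid genome, lysed with cycloheximide in all groups; 3 libraries came from METTL18 knockout cells and 2 from the wild type. METTL18 methylates a histidine in the ribosomal protein RPL3, and a footprint is an RNA fragment that a ribosome shields from nuclease. The labels used here do not state the kind of mutation, the number of clones or whether libraries of a group came from separate cultures, so the p-values reflect library-to-library spread that could be purely technical.

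Most histone protein is made in S phase from clustered genes, here the rows named HIST, whose mRNAs lack a poly(A) tail and end in a conserved stem-loop. Replication-independent variants are encoded outside those clusters, mostly from spliced, polyadenylated mRNAs, and can be placed in chromatin outside S phase. H2A.Z marks promoters and regulatory sites, H2A.X is phosphorylated around DNA breaks, macroH2A carries a large extra domain and is known from the inactive X chromosome and other repressed chromatin, H3.3 replaces H3 at active genes and at telomeres, and linker histones bind the DNA that enters and leaves the nucleosome.

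The library totals were 16339574, 17629199 and 16921863 counts in the knockout and 5302160 and 4887380 in the wild type, so depth runs with the groups and its part in the results was not tested beyond thinning. METTL18 itself fell (log2 fold change -1.44, adjusted p = 2.0e-06, edgeR quasi-likelihood test), with 33, 32 and 34 counts in the deeper knockout libraries and 33 and 32 in the wild type, and some footprints remained in every knockout library. Of 12 haematopoietic markers 4 had a row. Their summed level was 9.26 to 10.6 CPM in the knockout and 19.2 to 21.0 CPM in the wild type. CPM are counts per 1000000 after TMM scaling, the trimmed mean of M-values. Of 7 fibroblast markers 5 had a row, with 24.1 to 26.4 CPM in the knockout and 16.2 to 17.9 CPM in the wild type. The part of these markers in the results was not tested. A footprint count depends both on how much mRNA a gene has and on how densely ribosomes load it, and fewer cells of a kind cannot be told apart from less RNA per cell.

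H2AFZ and H2AFV encode the near-identical proteins H2A.Z.1 and H2A.Z.2, so their coding sequences are shown first because the comparison rests on telling them apart. Both coding sequences have 387 bases, of which 76 differ (80.4% identity). The first 60 coding bases follow, from GENCODE release 29 transcripts on hg38 (H2AFZ within chr4:99949684-99950170 and H2AFV within chr7:44843298-44847971, both on the minus strand and both interrupted by an intron), with capitals at the 12 bases that differ.
H2AFZ: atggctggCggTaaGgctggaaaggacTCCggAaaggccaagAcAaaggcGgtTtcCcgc
H2AFV: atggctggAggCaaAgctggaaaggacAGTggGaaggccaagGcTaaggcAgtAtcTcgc
No window of 28 bases of either coding sequence occurred in another row of the table. Processed pseudogenes are closer: 41.4% of the 360 windows of H2AFZ and 55.3% of those of H2AFV occurred in no other gene of the annotation, with 150 windows of H2AFZ in the pseudogene H2AFZP3 and 161 of H2AFV in H2AFVP1. The labels used here do not say how reads matching several places were handled. For H2AFY, H2AFY2, H1FX and H1F0, 100% of the windows occurred in no other gene, and for H2AFX 81.0% did, with windows shared with HIST copies and H2AFJ among the rest.

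H2AFX is known as the variant whose mRNA can end either in a histone stem-loop or in a poly(A) tail, so its stem-loop is shown beside that of an H2A copy of the HIST clusters. The search covered the sequence after the stop codon on the transcript strand only, for 16 bases that start with GG, end with CC, pair exactly over the outer 6 bases on each side and have T at the first and the third base of the loop. Capitals mark the paired stem and lower case the loop of 4 bases.
H2AFX: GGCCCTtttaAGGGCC
HIST1H2AE: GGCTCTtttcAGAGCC
The first lies at chr11:119094898-119094913 on the minus strand, 49 bases after the stop codon, and the second at chr6:26217417-26217432 on the plus strand (hg38). No other row of the variant genes held the pattern. It was found in 54 of 13951 rows searched, 0.387%, and in 18 of 56 HIST rows. The search demanded exact pairing within the annotated transcript, so a row without a match can still have a stem-loop. A match is a description of these letters and does not show which mRNA end was present.

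The variant genes differed little between the groups. Of the 6 genes past the low-count filter, 3 rose (H1FX, H2AFY and H2AFZ), none fell and 3 did not pass (H2AFX, H2AFV and H2AFY2) at an adjusted p under 0.05 in edgeR's quasi-likelihood test. Among all 11335 genes tested, 74.4% passed, 37.8% as higher and 36.6% as lower. The median log2 fold change of the 6 genes, knockout over wild type, was 0.0950, and the median of its size was also 0.0950, beside 0.0161 and 0.589 over all genes tested. The levels did not overlap between the groups for 3 of the 6 genes, against 83.5% of all genes. When libraries were scaled by their total counts in place of TMM, the median of all genes shifted to -0.255, 26.3% of genes passed as higher and 49.4% as lower. H1FX still passed as higher with that scaling and the other 5 variant genes passed as lower, so the direction of H2AFZ, H2AFY, H2AFV and H2AFX depends on the scaling.

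**Figure D1:**
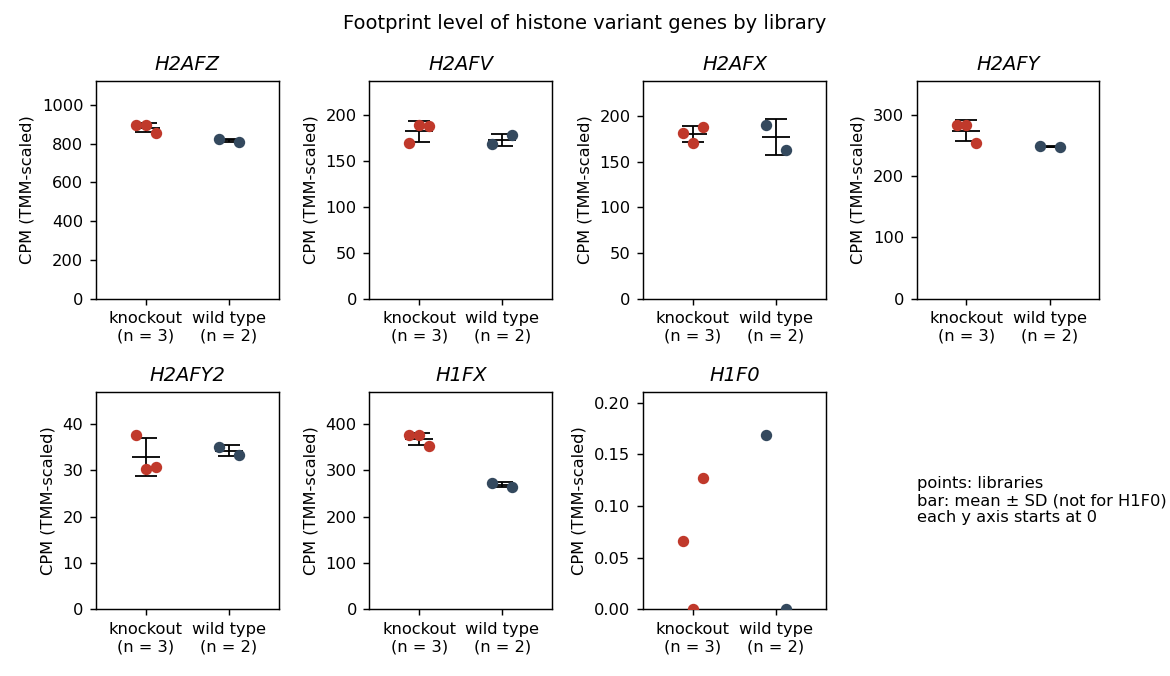
Levels in CPM of the 7 variant genes with a row, with knockout libraries (red, n = 3) left of wild-type libraries (blue, n = 2), points for libraries and bars for the mean ± SD. H1FX stands at 353 to 376 CPM in the knockout and at 265 to 273 CPM in the wild type, while the points of H2AFX, H2AFV and H2AFY2 overlap between the groups.

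H2AFZ (transcript ENST00000296417, chromosome 4, 99948088 to 99950388, minus strand, 5 exons) encodes H2A.Z.1. It overlaps AC097460.1 in the annotation, and the labels used here do not say whether counting used strand. The level of H2AFZ was 896, 899 and 856 CPM in the knockout libraries, against 823 and 811 CPM in the wild type. Every knockout library lay above both wild-type libraries, by a small margin. The log2 fold change was 0.11 (SE 0.0387, 95% interval 0.0348 to 0.191, adjusted p = 0.00860, edgeR quasi-likelihood test). The call was lost without wild type replicate 1 (0.12, adjusted p = 0.0605) and without wild type replicate 2 (0.0967, adjusted p = 0.136), and with total-count scaling the gene passed as lower (-0.16).

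H2AFV (transcript ENST00000308153, chromosome 7, 44834228 to 44848063, minus strand, 5 exons) encodes H2A.Z.2. It had 170, 190 and 188 CPM in the knockout libraries and 169 and 178 CPM in the wild type. The groups overlapped, with knockout replicate 1 between the wild-type libraries. The log2 fold change was 0.0770 (95% interval -0.0338 to 0.188, adjusted p = 0.202, edgeR quasi-likelihood test), and without METTL18 knockout replicate 1 the gene passed as higher (0.12, adjusted p = 0.0269). H2AFZ made up 82.9% ± 1.09 of the counts of the H2AFZ and H2AFV pair in the knockout (SD, n = 3) and 82.5% ± 0.714 in the wild type (SD, n = 2). This difference of 0.368 percentage points was smaller than the spread between libraries (exact two-sided permutation test, p = 1).

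H2AFX (transcript ENST00000530167, chromosome 11, 119093854 to 119095467, minus strand, 1 exon) encodes H2A.X, the substrate of the DNA damage kinases. It had 182, 170 and 188 CPM in the knockout libraries and 191 and 163 CPM in the wild type. All 3 knockout values lay between the wild-type values. The log2 fold change was 0.0249 (95% interval -0.0904 to 0.140, adjusted p = 0.702, edgeR quasi-likelihood test). The interval covers folds of 0.939 to 1.10 and rests on 2753 to 2967 counts in the knockout and 890 to 1133 in the wild type.

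H2AFY and H2AFY2 encode the paralogous proteins macroH2A1 and macroH2A2, and the row of H2AFY does not separate its splice forms. H2AFY (transcript ENST00000511689, chromosome 5, 135333900 to 135399622, minus strand, 9 exons) had 284, 284 and 254 CPM in the knockout libraries and 249 and 247 CPM in the wild type. Knockout replicate 3 was the lowest of its group and close to the wild type. The log2 fold change was 0.14 (SE 0.0505, 95% interval 0.0401 to 0.244, adjusted p = 0.0111, edgeR quasi-likelihood test). The call was lost without METTL18 knockout replicate 2 (0.11, adjusted p = 0.0634), without wild type replicate 1 (0.15, adjusted p = 0.0713) and without wild type replicate 2 (0.13, adjusted p = 0.102), and the gene passed as lower with total-count scaling (-0.13).

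H2AFY2 (transcript ENST00000373255, chromosome 10, 70052796 to 70112280, plus strand, 9 exons) stood at 37.5, 30.2 and 30.7 CPM in the knockout libraries and at 35.0 and 33.3 CPM in the wild type. Knockout replicate 1 was above both wild-type libraries and the other knockout libraries were below them. The log2 fold change was -0.0615 (95% interval -0.263 to 0.140, adjusted p = 0.583, edgeR quasi-likelihood test). H2AFY took 89.3% ± 1.02 of the counts of the macroH2A pair in the knockout (SD, n = 3) and 87.9% ± 0.319 in the wild type (SD, n = 2). It was higher in all 3 knockout libraries, by 1.40 percentage points on average (exact two-sided permutation test, p = 0.2, the smallest p that 3 against 2 libraries allow). The difference was 0.874 points without METTL18 knockout replicate 2 and 1.89 points without METTL18 knockout replicate 1. H2AFY2 overlaps AIFM2 in the annotation, and H2AFY overlaps AC026691.1 and the non-coding C5orf66. The labels used here do not say whether counting used strand.

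H1FX (transcript ENST00000333762, chromosome 3, 129314771 to 129316277, minus strand, 1 exon) encodes the linker histone H1.X. It had 376, 375 and 353 CPM in the knockout libraries, against 273 and 265 CPM in the wild type. All knockout libraries were clearly above the wild type. The log2 fold change was 0.45 (SE 0.0466, 95% interval 0.357 to 0.546, adjusted p = 1.92e-11, edgeR quasi-likelihood test), a 1.37-fold level. Of all genes tested, 40.2% had a smaller change in size, against 2.47% to 13.5% for the other 5 variant genes. H1FX passed as higher under all 15 alternatives, with log2 fold changes of 0.18 with total-count scaling to 0.48 with the replicate block. H1FX overlaps the antisense gene H1FX-AS1, whose reads could not be separated without strand.

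H1F0 (transcript ENST00000340857, chromosome 22, 37805093 to 37807436, plus strand, 1 exon) encodes H1.0, the linker histone known to accumulate in cells that have stopped dividing. Its row held 1, 0 and 2 counts in the knockout libraries and 1 and 0 in the wild type. Both groups were at or under a floor of 3 counts over the group, which is 0.0636 CPM in the knockout and 0.263 CPM in the wild type, so no fold is given. All 558 windows of its coding sequence occurred in no other gene.

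Levels per length, in CPM per kilobase of coding sequence of the 6 genes, were highest for H2AFZ and lowest for H2AFY2 in both groups. In the knockout H2AFZ stood at 2284 ± 62.0, followed by H1FX at 573 ± 20.8, H2AFV at 472 ± 29.1, H2AFX at 417 ± 20.8, H2AFY at 245 ± 15.4 and H2AFY2 at 29.3 ± 3.64 (SD, n = 3). In the wild type H2AFZ stood at 2111 ± 22.9, followed by H2AFV at 448 ± 17.3, H1FX at 419 ± 8.26, H2AFX at 409 ± 45.7, H2AFY at 222 ± 1.28 and H2AFY2 at 30.5 ± 1.09 (SD, n = 2). In the wild type the libraries of H2AFX, at 442 and 377, overlapped those of H2AFV and spanned those of H1FX, and H2AFV (436 and 460) was above H1FX (425 and 413) in both. In the knockout H1FX was above H2AFV in all libraries.

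The variants took a smaller share of their histone class in the knockout. This share is a ratio within a library and uses no scaling factor. The 5 H2A variants took 16.8%, 16.7% and 16.1% of the counts of all 21 H2A rows in the knockout libraries and 27.3% and 27.3% in the wild type. The groups did not overlap, and the means were 16.5% ± 0.379 in the knockout (SD, n = 3) and 27.3% ± 0.0120 in the wild type (SD, n = 2), a difference of -10.8 percentage points (exact two-sided permutation test, p = 0.2, the smallest p possible). Each of the 5 had a lower share: H2AFZ took 9.41% ± 0.282 in the knockout and 15.4% ± 0.0874 in the wild type, and H2AFX took 1.92% ± 0.0964 in the knockout and 3.33% ± 0.318 in the wild type. H2AFY had 2.92% ± 0.192 in the knockout and 4.68% ± 0.0504 in the wild type. H2AFV had 1.94% ± 0.111 in the knockout and 3.27% ± 0.180 in the wild type, and H2AFY2 had 0.349% ± 0.0451 in the knockout and 0.644% ± 0.0124 in the wild type.

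**Figure D2:**
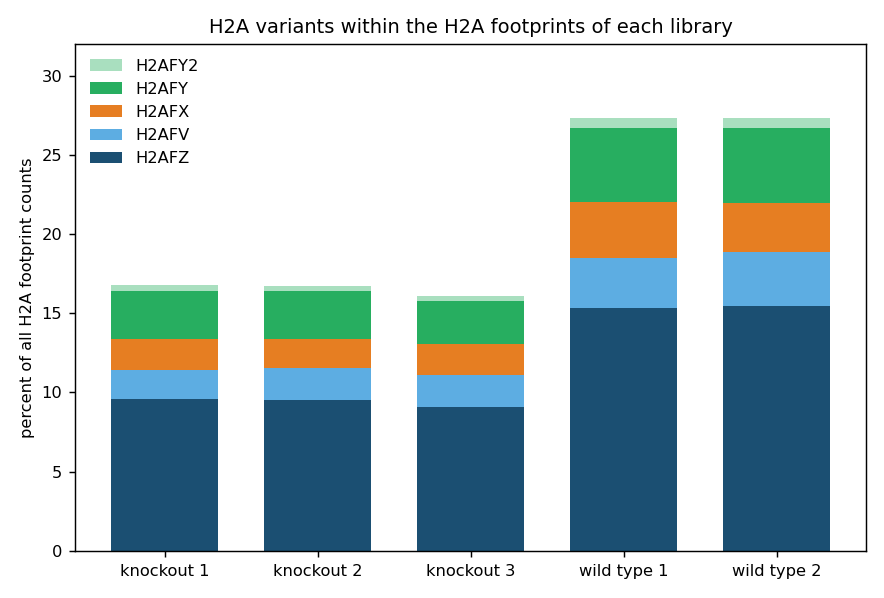
Percent of all H2A footprint counts that fell on each of the 5 H2A variants, as stacked bars per library, with the 3 knockout libraries left of the 2 wild-type libraries. The stacks reach 16.1% to 16.8% in the knockout and 27.3% in both wild-type libraries, with H2AFZ the largest layer in every library.

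H1FX and H1F0 together took 4.61%, 4.88% and 4.41% of the counts of the 9 H1 rows in the knockout libraries and 8.25% and 7.90% in the wild type. The means were 4.63% ± 0.234 in the knockout (SD, n = 3) and 8.08% ± 0.245 in the wild type (SD, n = 2), with no overlap and a difference of -3.44 percentage points (exact two-sided permutation test, p = 0.2). Nearly all of this share was H1FX, whose own level was higher in the knockout. Over the 4 shares compared, the Benjamini-Hochberg adjusted p of the exact permutation test was 0.267 for the 3 with p = 0.2 and 1 for the H2A.Z pair. No share was computed for H3, whose 13 rows held none of the variant genes.

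The rows beside which these shares were taken were mostly higher. Of 13 tested H2A rows named HIST, 12 rose, HIST2H2AC being the exception, with a median log2 fold change of 1.195. The 5 tested H1 rows rose, with a median of 3.31. Among all genes tested, 37.8% rose. These medians weigh each row alike, while the shares rest on sums. The summed level of the H1 rows named HIST was 7318 to 7786 CPM in the knockout and 3036 to 3092 CPM in the wild type. For the H2A rows named HIST it was 7744 to 7883 CPM and 3807 to 3896 CPM. HIST1H1C, the most abundant H1 copy in the knockout, had 3449 ± 87.6 CPM there and 1427 ± 31.2 CPM in the wild type. HIST1H2AE had 1783 ± 16.5 CPM in the knockout and 897 ± 10.1 CPM in the wild type. HIST2H2AC had 264 ± 15.9 CPM in the knockout and 263 ± 3.55 CPM in the wild type (log2 fold change 0.00448, adjusted p = 0.940, edgeR quasi-likelihood test). With total-count scaling the counts were 12 rose and 1 fell for H2A, and all 5 rose for H1. Over all genes, 26.3% rose and 49.4% fell with that scaling. HIST copies share sequence with one another, so values of single copies are uncertain.

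**Figure D3:**
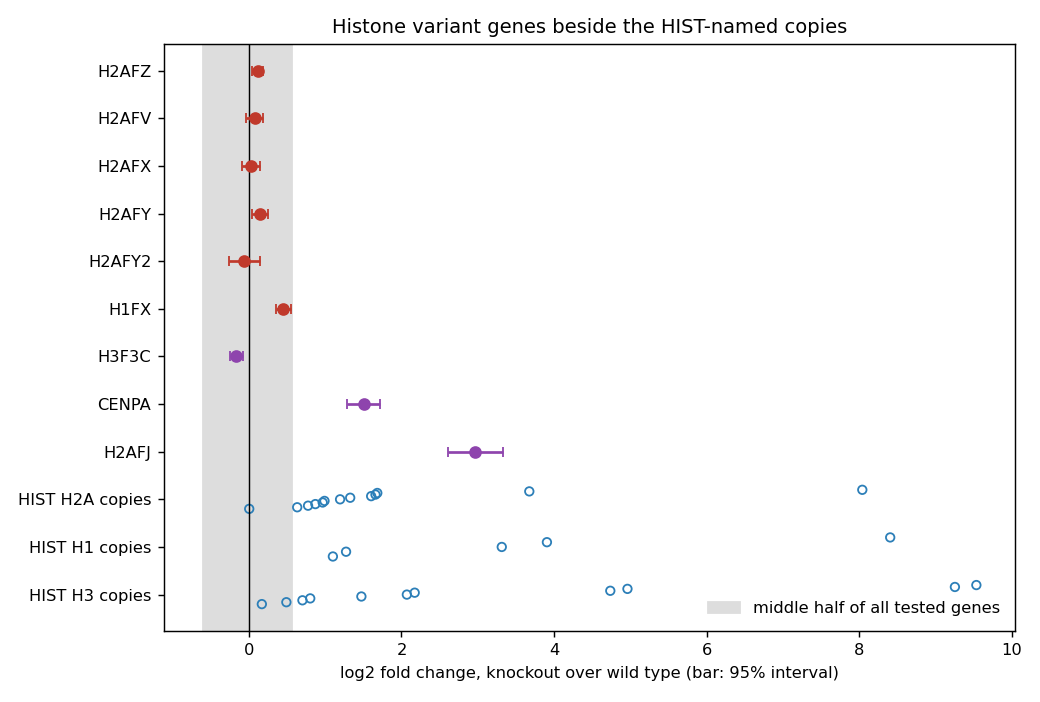
Log2 fold change, knockout over wild type, of the 6 tested variant genes (red) and 3 other variants (purple) with 95% intervals, above the tested HIST copies of H2A, H1 and H3 (open circles, 1 per gene). Grey marks the middle 50% of all tested genes, from -0.606 to 0.57, within which all 6 variant genes lie, while CENPA, H2AFJ and most HIST copies lie to its right.

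Among other variants encoded outside the replicative clusters, H2AFJ and CENPA had larger fold changes than any of the 6 genes above. Of the 12 listed, 4 had a row and 3 were tested, of which 2 rose and 1 fell, also under total-count scaling. Over all genes tested, 37.8% rose and 36.6% fell, and with total-count scaling 26.3% rose and 49.4% fell. H2AFJ, an H2A variant that resembles the replicative protein, had 28.9, 27.6 and 24.2 CPM in the knockout libraries and 3.20 and 3.66 CPM in the wild type, a log2 fold change of 2.97 (adjusted p = 1.02e-18, edgeR quasi-likelihood test). CENPA, the H3 variant of centromeres, had 42.4, 42.0 and 43.3 CPM in the knockout and 14.1 and 15.9 CPM in the wild type, a log2 fold change of 1.505 (adjusted p = 2.39e-16, edgeR quasi-likelihood test). Neither gene's groups overlapped, as was so for 83.5% of all genes tested. H1FNT, a testis linker histone, had 1 count in all.

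H3F3C, a retrogene for the H3.3-like protein H3.5, fell slightly. It had 327, 328 and 327 CPM in the knockout libraries and 371 and 362 CPM in the wild type. The groups did not overlap, as was so for 83.5% of all genes tested. For H3F3C the log2 fold change was -0.16 (95% interval -0.251 to -0.0755, adjusted p = 0.000925, edgeR quasi-likelihood test), and -0.44 with total-count scaling. Its coding sequence is shown because it is a near copy of H3F3B: 397 of 408 aligned bases are the same (97.3%), and 178 of its 381 windows of 28 bases (46.7%) also occur in H3F3B, against 77.7% identity with H3F3A. The first 60 coding bases follow, from chr12:31792107-31792166 (H3F3C) and chr17:75779115-75779174 (H3F3B), both on the minus strand of hg38, with the base that differs in capitals.
H3F3C: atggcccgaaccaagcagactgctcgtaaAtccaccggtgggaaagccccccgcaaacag
H3F3B: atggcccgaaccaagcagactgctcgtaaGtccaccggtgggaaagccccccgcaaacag
Footprints in such stretches could come from either gene, and the labels used here do not say how they were assigned. The value of the H3F3C row is therefore uncertain, and its fall cannot be credited to H3F3C alone.

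Genes that handle these variants are given from lists chosen with earlier results of these data known. Each stands beside the background of 37.8% higher and 36.6% lower over all genes tested. For the counts with total-count scaling, that background was 26.3% higher and 49.4% lower. Of 10 genes that supply or deposit H3.3, 3 rose, 5 fell and 2 did not pass, with a median log2 fold change of -0.20, and with total-count scaling 2 rose and 7 fell. NASP, a chaperone of soluble H3 and H4, rose to 1169 ± 14.9 CPM in the knockout, against 591 ± 0.0736 CPM in the wild type. ATRX, the remodeller that places H3.3 at telomeres and repeats, fell (170 ± 7.97 CPM in the knockout, 242 ± 2.39 CPM in the wild type), and CABIN1, a subunit of the HIRA complex, fell too (log2 fold change -0.65). DAXX, the H3.3 chaperone that works with ATRX, rose by 2.36 on the log2 scale on few counts, 95, 143 and 103 in the knockout libraries and 9 and 7 in the wild type. UBN2 (-0.20) and DEK (-0.0890) did not pass. UBN2 passed as lower under 3 of the 15 alternatives and DEK under 7.

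Of 21 genes of the complexes that exchange H2A.Z, 9 rose, 4 fell and 8 did not pass, with a median log2 fold change of 0.12. With total-count scaling 2 rose and 10 fell. TRRAP, a scaffold of the TIP60-EP400 complex, fell to 112 ± 2.46 CPM in the knockout, against 249 ± 10.1 CPM in the wild type, and the ATPase EP400 fell by 0.61 on the log2 scale. RUVBL1, an ATPase shared by several remodellers, rose to 493 ± 20.4 CPM in the knockout, against 315 ± 0.982 CPM in the wild type. YEATS4, a reader of acetylated histones, rose by 0.42, a call that was lost with total-count scaling.

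Of 15 tested genes that phosphorylate H2A.X or read the mark, 4 rose, 7 fell and 4 did not pass, with a median log2 fold change of -0.00198. With total-count scaling 3 rose and 10 fell. The kinases PRKDC (1142 ± 25.6 CPM in the knockout, 3491 ± 48.0 CPM in the wild type) and ATM (36.7 ± 1.85 CPM in the knockout, 96.7 ± 9.71 CPM in the wild type) fell, as did PPM1D, a phosphatase that removes the mark (log2 fold change -1.17). RNF168, the ubiquitin ligase that acts on H2A at breaks, rose by 1.26. H2AFX itself did not pass, as given above.

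Of 18 general histone chaperones, 12 rose, 4 fell and 2 did not pass, with a median log2 fold change of 0.35. With total-count scaling 7 rose and 6 fell. SPTY2D1, a chaperone of H3 and H4, rose by 0.83 and TONSL, a reader of newly made H4, by 1.39. IPO9, an importin of H2A and H2B (-0.62), and the elongation factor SUPT6H (-0.57) fell, and RBBP4 (-0.0288) and MMS22L (-0.11) did not pass. RBBP4 passed as lower under 2 of the 15 alternatives and MMS22L under 1. Of 5 genes that place CENPA or bind it in chromatin, 4 rose and 1 did not pass, with a median log2 fold change of 0.67. With total-count scaling 4 of these rose and 1 fell. HJURP, the CENPA chaperone, rose to 59.1 ± 3.71 CPM in the knockout, against 24.3 ± 1.55 CPM in the wild type. MIS18A (1.06), OIP5 (0.67) and CENPN (0.59) rose too, and CENPC (0.0525) did not pass, but passed as lower with total-count scaling.

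**Figure D4:**
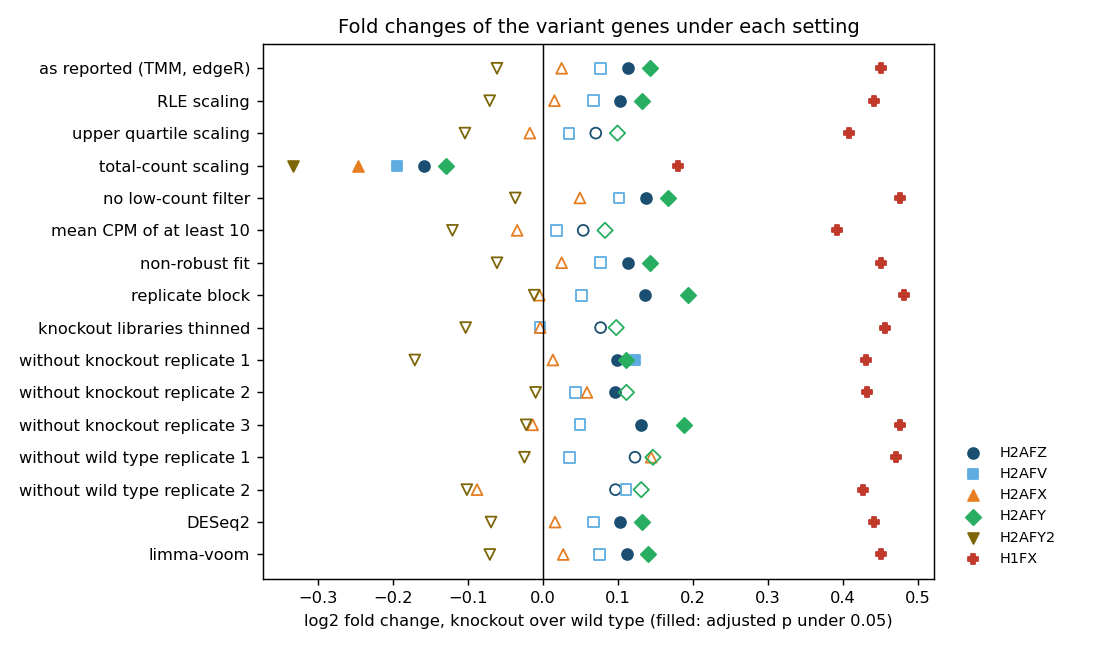
Log2 fold change, knockout over wild type, of the 6 tested variant genes as reported and under the 15 alternative settings, filled where the adjusted p of that setting's fit over all genes was under 0.05. H1FX stays at 0.18 to 0.48 throughout, while total-count scaling moves every gene to the left and puts the other 5 below 0.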

How the data were processed

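The authors deposited raw counts of ribosome footprints, 1 row per Ensembl transcript and gene symbol; the submitters' processing notes name Bowtie and hg38, and the counting tool and annotation: not given in the sources used here. Per the labels' protocols, footprints of 28 to 32 bases from RNase I digests were sequenced. All rows entered the fit, and where a symbol had several rows the one with most counts is described. edgeR 4.0.16 (R 4.3.3) was fitted to the counts (TMM, filterByExpr with a minimum count of 10 and minimum total of 15, robust quasi-likelihood fit, group as the sole term, Benjamini-Hochberg adjustment over all genes tested, threshold 0.05); SE is the log2 fold change divided by the square root of F. Alternatives used DESeq2 1.42.0, limma 3.58.1 and the settings named in the closing section. Shares were tested with scipy 1.17.1 by exact permutation. GENCODE release 29, on the same build, gave coding lengths for 99.1% of rows. The fit was tested on simulated data with the same dispersion for all genes and 50 genes changed per fold size, up or down. There, 42% of genes changed 1.25-fold and 80% changed 1.5-fold were recovered. The changed genes were drawn over a wide range of levels, so these percentages are not those for genes at the level of the variants. Few genes differed in that simulation, so it could not test the scaling of groups in which most genes differ. The variant genes, gene lists and the rule for named genes (all variant genes, the 4 smallest adjusted p per list, the non-passing members where at most 3, and the 3 nearest genes to the largest rise) were chosen with earlier results of these data known; 1 listed gene is not reported here. The wild-type libraries differed by a chi-square per degree of freedom of 1.14, close to what counting error alone gives. Pairs of the deeper knockout libraries differed by 2.73 to 3.48. The wild-type libraries were kept as 2 samples because the labels list them so. Intervals and floors cover counting error or the spread of these libraries only.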

Additional observations from a re-analysis of the deposited data

How the results depend on the processing

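H1FX kept its direction under all 15 alternatives, and the shares of the H2A and H1 variants kept theirs under the 7 run on shares. Most of those 7 left out a library, which could not turn a share whose groups did not overlap. The number of variant genes called, 3 as reported, was 1 (H1FX) with upper quartile scaling, with a mean CPM of at least 10, with the knockout libraries thinned and without either wild-type library, and 6 (1 higher, 5 lower) with total-count scaling; it ranged from 1 to 4 with a library left out. H2AFZ did not pass with upper quartile scaling (0.0704), a mean CPM of at least 10 (0.0537) or thinning (0.0769), turned to -0.159 with total-count scaling, and ranged from 0.0956 to 0.130 with a library left out. H2AFY did not pass at 0.0994, 0.0828 and 0.0977 under the same 3 settings, turned to -0.130 with total-count scaling, and ranged from 0.111 to 0.188. H2AFX, never past the threshold except with total-count scaling (-0.247), changed sign with upper quartile scaling (-0.0176), a mean CPM of at least 10 (-0.0345), the replicate block (-0.0048), thinning (-0.00373), without METTL18 knockout replicate 3 (-0.0138) and without wild type replicate 2 (-0.0881), with a range of -0.0881 to 0.144. H2AFV turned to -0.195 with total-count scaling and -0.0039 with thinning, and ranged from 0.0358 to 0.122; H2AFY2 passed as lower with total-count scaling (-0.333) and ranged from -0.171 to -0.0099. The share of H2A variants differed by -9.97 percentage points per coding length and by -10.9 to -10.6 with a library left out. The H2AFZ share of its pair ranged from -0.238 to 0.873 points and turned without METTL18 knockout replicate 1 (-0.238) and without wild type replicate 2 (-0.137). CENPC turned with total-count scaling (-0.219), with a mean CPM of at least 10 (-0.00688) and without wild type replicate 1 (-0.0417; range -0.0417 to 0.140 with a library left out). Total-count scaling shifts all genes; the other causes were not tested. No pair share was computed for H1F0 with H1FX, where H1F0 had almost no counts, or for H3F3A with H3F3B. Deviations of libraries with the same replicate number were almost uncorrelated (0.00853 and 0.0231). The wild-type libraries differed by little more than counting error, so this check could hardly show a pairing. With the replicate block 8476 genes were called, against 8431, and the same 3 variant genes passed. Where leaving out a wild-type library leaves 1, the fit assumes that it varies like the knockout libraries.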

Other observations

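The 3 genes whose centred log2 CPM over the 5 libraries lay nearest to that of H1FX, among 7982 genes whose log2 CPM averaged 3 or more, were RNF4, TRIM33 and DHTKD1, at Euclidean distances of 0.0178, 0.0221 and 0.0389 on the log2 scale. RNF4, a ubiquitin ligase that reads SUMO chains, had 70.3 CPM in the knockout and 50.9 CPM in the wild type, a log2 fold change of 0.46. TRIM33, a chromatin-binding ubiquitin ligase, had 112 CPM in the knockout and 80.9 CPM in the wild type (0.47), and the mitochondrial enzyme DHTKD1 had 75.4 CPM in the knockout and 56.0 CPM in the wild type (0.43). With 5 libraries, this likeness is mostly that of the group difference.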
